A study of Arabidopsis thaliana with 8 samples.

Results

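The 10 genes described here carry the EDS1, NPR and pipecolic acid branches of leaf immunity in Arabidopsis, and they were taken by locus number from a table of 24492 loci. They are *EDS1* (AT3G48090), *PAD4* (AT3G52430), *SAG101* (AT5G14930), *NDR1* (AT3G20600), *ALD1* (AT2G13810), *SARD4* (AT5G52810), *FMO1* (AT1G19250), *NPR1* (AT1G64280), *NPR3* (AT5G45110) and *NPR4* (AT4G19660). All 10 had values, as did 23050 of the 24492 loci, and all 10 were among the 20618 genes tested. The study asked which genes change in leaves that lack most *KAKU4* transcript, KAKU4 being a plant nuclear lamina protein at the inner nuclear envelope. It measured RNA levels by RNA-seq in rosette leaves of 6-week-old plants, with 3 *kaku4* libraries and 3 WT libraries described as independent biological replicates. The *kaku4* plants carried a homozygous T-DNA insertion in *KAKU4* (genotype kaku4-2 in the labels), so every mutant library came from 1 insertion line. The WT plants were Col (col in the labels), and no treatment was applied to either genotype. The study describes this line as senescing early, so genotype and stage of senescence cannot be told apart in these libraries.

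In Arabidopsis, intracellular immune receptors with a TIR domain pass their signal to the lipase-like protein EDS1, which pairs with either PAD4 or SAG101. These pairs work with helper receptors of the ADR1 and NRG1 families and promote the synthesis of salicylic acid (SA) and of N-hydroxypipecolic acid, a mobile signal of systemic acquired resistance. ALD1, SARD4 and FMO1 make N-hydroxypipecolic acid from lysine in that order, and SA is perceived by NPR1, a coactivator of defence genes, and by NPR3 and NPR4, which hold defence genes down until SA binds.

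All 10 are protein-coding genes and are scattered over the 5 nuclear chromosomes. By RefSeq annotation of TAIR10.1, the EDS1 group and NDR1 lie with *EDS1* at chr3:17755329-17758147 on the minus strand (4 exons), *PAD4* at chr3:19431095-19434450 on the plus strand (2 exons), *SAG101* at chr5:4828499-4830982 on the plus strand (3 exons) and *NDR1* at chr3:7194771-7195769 on the plus strand (1 exon). The pipecolic acid genes are *ALD1* at chr2:5768417-5772266 on the plus strand (10 exons), *SARD4* at chr5:21399331-21400686 on the plus strand (1 exon) and *FMO1* at chr1:6650476-6653195 on the minus strand (5 exons). The SA receptor genes are *NPR1* at chr1:23852748-23855658 on the minus strand (4 exons), *NPR3* at chr5:18228768-18231588 on the plus strand (3 exons) and *NPR4* at chr4:10696266-10698811 on the minus strand (3 exons).

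FPKM, the number of sequenced fragments scaled for transcript length and for library size, is the level used throughout. A gene was called higher or lower when its log2 fold change, *kaku4* over WT on the log2(FPKM + 0.1) scale, reached 1 in size with an adjusted p of at most 0.05 (limma, Benjamini-Hochberg adjustment over all 20618 genes tested). *FMO1*, *ALD1*, *SAG101* and *NPR1* were called higher in *kaku4*, and none of the 10 was called lower. By the same rule 16.4% of all genes tested were called higher and 11.5% were called lower. *EDS1* was just under the fold change threshold, *NDR1* had a lower level in every *kaku4* library, and *PAD4*, *SARD4* and *NPR4* overlapped between the genotypes. Without the fold change threshold, 5 of the 10 genes were higher and 1 was lower (28.6% and 28.3% of all genes tested). In 6 of the 10 every *kaku4* library was above every WT library, and in 1 every *kaku4* library was below (33.5% and 31.3% of all genes tested). The median log2 fold change over the 10 genes was 0.65, against 0.00 over all genes tested.

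The promoters of *ALD1* and *FMO1* are shown because these genes had the largest fold changes among the 10 and were the only ones of them with the letters GAAATTT in the 250 bases before the annotated start. GAAATTT is an element bound by CBP60g and SARD1, both transcription factors of SA signalling. The *ALD1* window is chr2:5768167-5768416 on the plus strand and the *FMO1* window is chr1:6653196-6653445 on the minus strand, both from RefSeq TAIR10.1 and written 5′ to 3′, with capitals marking each match of GAAATTT on either strand.
ALD1 promoter: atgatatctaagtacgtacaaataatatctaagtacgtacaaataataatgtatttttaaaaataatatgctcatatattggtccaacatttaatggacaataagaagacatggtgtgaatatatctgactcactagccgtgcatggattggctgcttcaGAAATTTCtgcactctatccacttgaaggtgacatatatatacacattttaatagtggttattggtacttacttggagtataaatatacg
FMO1 promoter: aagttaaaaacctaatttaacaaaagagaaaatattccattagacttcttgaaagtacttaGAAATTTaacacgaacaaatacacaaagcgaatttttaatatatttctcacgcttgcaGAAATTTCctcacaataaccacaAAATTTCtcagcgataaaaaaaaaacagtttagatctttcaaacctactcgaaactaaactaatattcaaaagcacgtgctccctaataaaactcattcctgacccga
*ALD1* had the element at 1 place, 90 bases before its start, where the matches on the 2 strands overlap. *FMO1* had it at 3 places, 189, 131 and 108 bases before its start. On either strand 12.5% of 27549 promoters of the same length held GAAATTT. The W-box core TTGAC, which WRKY factors bind, was in the windows of *EDS1*, *SAG101*, *SARD4* and *NPR3* and in 44.9% of all windows. The TGA factor core TGACG was in those of *NPR3* and *NPR4* and in 18.5% of all windows. *PAD4*, *NPR1* and *NDR1* had none of the 3 letter strings. TTGAC and TGACG share the letters TGAC, and a match describes the letters only.

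**Figure D1:**
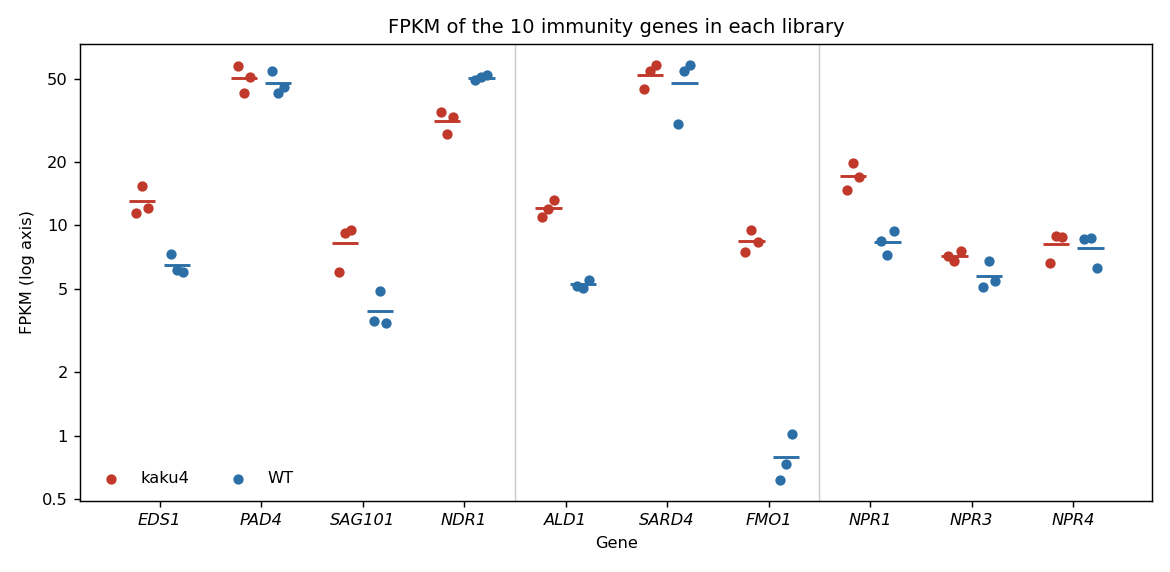
FPKM on a log axis of each of the 10 genes in the 3 *kaku4* libraries (red, left of each pair) and the 3 WT libraries (blue, right), with bars at the means. The *FMO1* libraries of *kaku4* sit between 7.49 and 9.47 FPKM, all above the WT libraries, while *PAD4*, *SARD4* and *NPR4* overlap.

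*FMO1*, the monooxygenase that hydroxylates pipecolic acid in the last step, had the largest fold change of the 10 genes. It stood at 7.49, 9.47 and 8.34 FPKM in the *kaku4* libraries, against 0.615, 0.733 and 1.02 FPKM in the WT libraries. The lowest *kaku4* library was thus several times above the highest WT library. Mean *FMO1* was 8.43 ± 0.99 FPKM in *kaku4* and 0.79 ± 0.21 FPKM in WT (SD, n = 3 each), which is 10.7-fold higher in *kaku4*. The log2 fold change was 3.28 with an SE of 0.22 (limma adjusted p = 5.72e-05), and 0.441% of all genes tested had a higher one. With a pseudocount of 1 in place of 0.1 it was 2.40.

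*ALD1*, the aminotransferase that opens the pathway, rose to a smaller extent. It had 11.0, 12.0 and 13.3 FPKM in *kaku4* and 5.17, 5.06 and 5.51 FPKM in WT. The replicates lay close together in both genotypes, with the *kaku4* mean at 12.1 ± 1.2 FPKM and the WT mean at 5.25 ± 0.24 FPKM (SD, n = 3 each). The log2 fold change was 1.19 with an SE of 0.14 (limma adjusted p = 0.000443). *SARD4*, the reductase that yields pipecolic acid, was the most abundant of the 3 enzymes and was not called. It had 44.4, 54.5 and 57.8 FPKM in *kaku4*, against 30.4, 54.1 and 58.2 FPKM in WT. Only WT replicate 1 stood apart. The *SARD4* log2 fold change was 0.18 with a 95% interval of -0.37 to 0.74, and it was -0.11 without WT replicate 1 (limma). The *SARD4* model overlaps AT5G52800 on the same strand by 89 bases, so reads in that stretch could be shared between them.

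The FPKM ratio of these enzymes within a library does not depend on a scale factor of that library. The log2 differences of these and the later ratios were taken on the log2(FPKM + 0.1) scale, where the 0.1 leaves some dependence on scale. The ratio of *FMO1* to *ALD1* was 0.683, 0.787 and 0.628 in the *kaku4* libraries and 0.119, 0.145 and 0.185 in the WT libraries. The log2 difference was 2.09, and 1.33 with a pseudocount of 1 in place of 0.1. The ratio of *SARD4* to *ALD1* was 4.04, 4.53 and 4.35 in *kaku4*, against 5.88, 10.7 and 10.5 in WT, a log2 difference of -1.0. Neither ratio overlapped between the genotypes. In both cases the exact two-sided permutation p was 0.1 (0.117 after Benjamini-Hochberg adjustment over 7 ratios), and 0.1 is the smallest that 3 against 3 libraries can give. Enzymes next to this route were not called: *AGD2*, an aminotransferase of lysine synthesis related to *ALD1*, had a log2 fold change of 0.45 (limma adjusted p = 0.0481), and *UGT76B1*, which glucosylates N-hydroxypipecolic acid and SA, had -0.49 (limma adjusted p = 0.0812).

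*EDS1*, the common partner of both heterodimers, was above WT in every *kaku4* library. Its levels were 11.5, 15.5 and 12.1 FPKM in *kaku4*, against 7.34, 6.12 and 5.99 FPKM in WT. The log2 fold change was 0.99 with an SE of 0.16 (limma adjusted p = 0.0015), just short of the threshold of 1, so *EDS1* was not called. *SAG101* had 5.99, 9.16 and 9.47 FPKM in *kaku4* and 3.52, 4.85 and 3.42 FPKM in WT, and the 2 sets did not overlap. Its log2 fold change of 1.03 with an SE of 0.23 (limma adjusted p = 0.00505) lay just past the threshold. Left-out libraries moved both across it: *EDS1* was called without *kaku4* replicate 1 (1.07), *kaku4* replicate 3 (1.04) or WT replicate 1 (1.08), and *SAG101* was not called without *kaku4* replicate 2 (0.94), *kaku4* replicate 3 (0.92), WT replicate 1 (0.96) or WT replicate 3 (0.94). *PAD4* had by far the higher level of the partner genes and overlapped between genotypes, at 57.2, 42.5 and 50.6 FPKM in *kaku4* and 54.3, 42.5 and 45.4 FPKM in WT. The *PAD4* log2 fold change was 0.08 with a 95% interval of -0.27 to 0.43 (limma adjusted p = 0.687).

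Within each library *PAD4* exceeded *EDS1* in both genotypes, by less in *kaku4*. The ratio of *PAD4* to *EDS1* was 4.97, 2.75 and 4.18 in *kaku4* and 7.40, 6.94 and 7.57 in WT, a log2 difference of -0.91 (exact two-sided permutation p = 0.1, adjusted 0.117 over 7 ratios). The ratio of *SAG101* to *EDS1* overlapped, at 0.520, 0.592 and 0.782 in *kaku4* and 0.480, 0.793 and 0.570 in WT. Its log2 difference was 0.04 (exact two-sided permutation p = 0.8, adjusted 0.8), and it turned to -0.12 without *kaku4* replicate 3 or without WT replicate 1.

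*EDS1* lies beside a close relative, AT3G48080, 138 bases away on chromosome 3. RefSeq annotates AT3G48080 as an alpha/beta-hydrolase family protein. The coding sequences of the pair matched at 84.8% of 1856 aligned positions, and the longest identical run was 44 bases. The least alike 60 bases, positions 104 to 163 of each coding sequence in RefSeq TAIR10.1, are shown to let the copies be told apart, with capitals at the 17 positions where they differ.
EDS1 coding sequence: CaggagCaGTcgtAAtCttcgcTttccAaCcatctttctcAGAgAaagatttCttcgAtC
AT3G48080 coding sequence: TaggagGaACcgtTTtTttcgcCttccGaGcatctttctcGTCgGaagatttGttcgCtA
Of all 50-base windows of the *EDS1* transcript, 0.919% were found elsewhere in the genome, and 0.91% of those of AT3G48080. AT3G48080 had 7.38, 9.49 and 7.16 FPKM in *kaku4*, against 3.03, 2.82 and 2.19 FPKM in WT, with no overlap. It was called higher with a log2 fold change of 1.54 (limma adjusted p = 0.000511). In an alternative chosen after seeing the data, *EDS1* and AT3G48080 were summed, and the sum had a log2 fold change of 1.19 (limma adjusted p = 0.000699) and was past the threshold.

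*NDR1* encodes a plasma membrane protein that several coiled-coil immune receptors need, and it was the only one of the 10 with a lower level in every *kaku4* library. It had 34.6, 27.3 and 32.7 FPKM in *kaku4*, against 49.0, 50.8 and 51.8 FPKM in WT. The 2 sets were well apart. The log2 fold change was -0.68 with an SE of 0.13 (limma adjusted p = 0.00247), short of the fold change threshold. With the length trend taken out of each library it was -0.01, and with the GC trend taken out it was 0.04. The ratio of *NDR1* to *EDS1* was 3.00, 1.76 and 2.70 in *kaku4* and 6.68, 8.30 and 8.63 in WT, a log2 difference of -1.67 (exact two-sided permutation p = 0.1, adjusted 0.117 over 7 ratios). This difference was -0.41 with the length trend removed (exact two-sided permutation p = 0.2). It was -0.98 with the GC trend removed (exact two-sided permutation p = 0.1), the GC setting having been added after seeing the data. *NDR1* has the shortest transcript of the 10, at 999 bases in 1 exon, and 5.58% of its 50-base windows occur elsewhere in the genome.

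*NPR1* rose in *kaku4*, and the other SA receptor genes were not called. *NPR1* had 14.8, 19.7 and 17.0 FPKM in *kaku4*, against 8.45, 7.22 and 9.44 FPKM in WT. The lowest *kaku4* library was above the highest WT library, and the log2 fold change was 1.03 with an SE of 0.16 (limma adjusted p = 0.00124). It was 0.92 and not called without *kaku4* replicate 2, and likewise without WT replicate 2. *NPR3* had 7.12, 6.75 and 7.57 FPKM in *kaku4* and 5.08, 6.74 and 5.42 FPKM in WT. The 2 sets touched without overlapping, and the log2 fold change was 0.32 with a 95% interval of -0.04 to 0.68 (limma adjusted p = 0.116). With the GC trend removed *NPR3* came to 0.83 (limma adjusted p = 0.0022), where *NPR1* came to 0.65. After rescaling each library to the same FPKM sum *NPR3* was at 0.82 (limma adjusted p = 0.0091), and with the length trend removed it was at -0.31. *NPR4* had 6.60, 8.94 and 8.83 FPKM in *kaku4* and 8.58, 8.67 and 6.24 FPKM in WT. These overlapped throughout, with a log2 fold change of 0.05 and a 95% interval of -0.38 to 0.49 (limma adjusted p = 0.825). The *NPR1* model overlaps AT1G64270 by 38 bases and AT1G08667 by 214 bases, both on the other strand. TopHat2 and Cufflinks were run with default settings, which take no account of strand, so reads in these stretches could come from either gene.

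Within each library, *NPR3* and *NPR4* stood lower beside *NPR1* in *kaku4* than in WT with the values as deposited. The ratio of *NPR3* to *NPR1* was 0.481, 0.342 and 0.446 in *kaku4* and 0.601, 0.933 and 0.574 in WT, a log2 difference of -0.71. The ratio of *NPR4* to *NPR1* was 0.446, 0.453 and 0.520 in *kaku4* and 1.02, 1.2 and 0.661 in WT, a log2 difference of -0.97. Neither overlapped between genotypes, and each had the smallest exact two-sided permutation p the design allows, 0.1 (adjusted 0.117 over 7 ratios). With the GC trend removed, the difference of *NPR3* to *NPR1* turned to 0.18 and that of *NPR4* to *NPR1* came to -0.20 (exact two-sided permutation p = 0.4 for both).

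**Figure D2:**
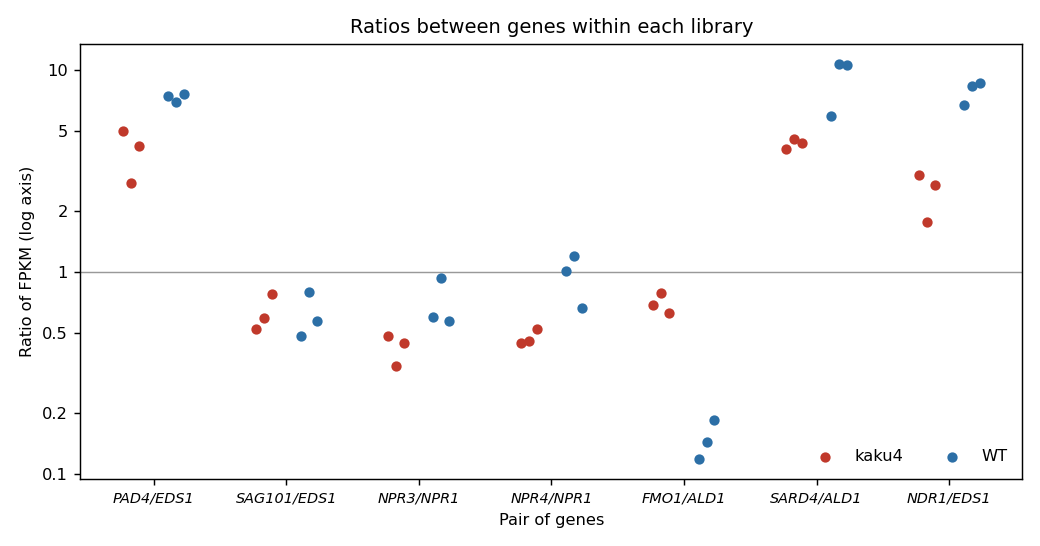
Ratio of the FPKM of 2 genes within each library, on a log axis, for 7 pairs, with the 3 *kaku4* libraries in red on the left of each pair and the 3 WT libraries in blue on the right. With the values as deposited, *FMO1* to *ALD1* is higher in every *kaku4* library, 5 pairs are lower in every *kaku4* library, and *SAG101* to *EDS1* overlaps. The second genes of these pairs, *ALD1*, *EDS1* and *NPR1*, were themselves higher in every *kaku4* library. The share of other gene pairs that separate was not computed.

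By FPKM, which is per length, the 10 genes were spread over a wide range in both genotypes. In *kaku4*, *SARD4* and *PAD4* were highest and overlapped each other, followed at a distance by *NDR1* and then by *NPR1*, *EDS1* and *ALD1*, where each neighbour overlapped the next. *FMO1*, *SAG101*, *NPR4* and *NPR3* formed the lowest set in *kaku4*, with overlapping libraries. In WT, *NDR1*, *SARD4* and *PAD4* overlapped at the top. *NPR1*, *NPR4*, *EDS1*, *NPR3* and *ALD1* came next, each overlapping its neighbour, then *SAG101*, and *FMO1* was lowest and apart from all others.

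Fold changes in this table moved with transcript length, which bears on each of the 10 genes. Over 20464 genes, the log2 fold change and the transcript length had a Spearman correlation of 0.59, a description across genes that share the 6 libraries. The median log2 fold change was -0.85 in the shortest of 10 equal bins of genes and 1.16 in the longest. Among genes within 10% of the length of *NPR1* (2614 bases), 29.4% were called higher, and for *EDS1* (2551 bases) it was 27.4%. Around *ALD1* (1571 bases) and *FMO1* (1915 bases) the shares were 7.77% and 12.4%. Around *NDR1*, 3.41% were called higher and 26.4% were called lower.

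With the length trend removed in each library, *FMO1* stood at 3.13 and *ALD1* at 1.32 on the log2 scale, and both were still called. *SAG101* came to 0.76 (limma adjusted p = 0.0172), and *NPR1* and *EDS1* both came to 0.40 (limma adjusted p = 0.0468 for *NPR1* and 0.0481 for *EDS1*), so none of these was called. *NDR1* came to -0.01 (limma adjusted p = 0.937). *PAD4*, *NPR3* and *NPR4* turned negative, at -0.32, -0.31 and -0.41, and *SARD4* came to 0.52, none of them with an adjusted p under 0.05. After this step 2 of the 10 genes were called higher and none lower, where 7.77% of all genes tested were called higher and 5.21% lower. By adjusted p alone 5 were higher and none lower, where 20.2% and 20% of all genes tested were. The 7 ratios between genes kept their signs, and the log2 difference was 1.81 for *FMO1* to *ALD1*, -0.81 for *SARD4* to *ALD1* and for *NPR4* to *NPR1*, -0.71 for *NPR3* to *NPR1* and -0.72 for *PAD4* to *EDS1*. That of *NDR1* to *EDS1* shrank to -0.41 and that of *SAG101* to *EDS1* came to 0.36. With the GC trend removed instead, *EDS1* was called at 1.03 and *SAG101* at 1.44, and *NPR1* at 0.65 was not. The cause of the length trend was not tested.

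**Figure D3:**
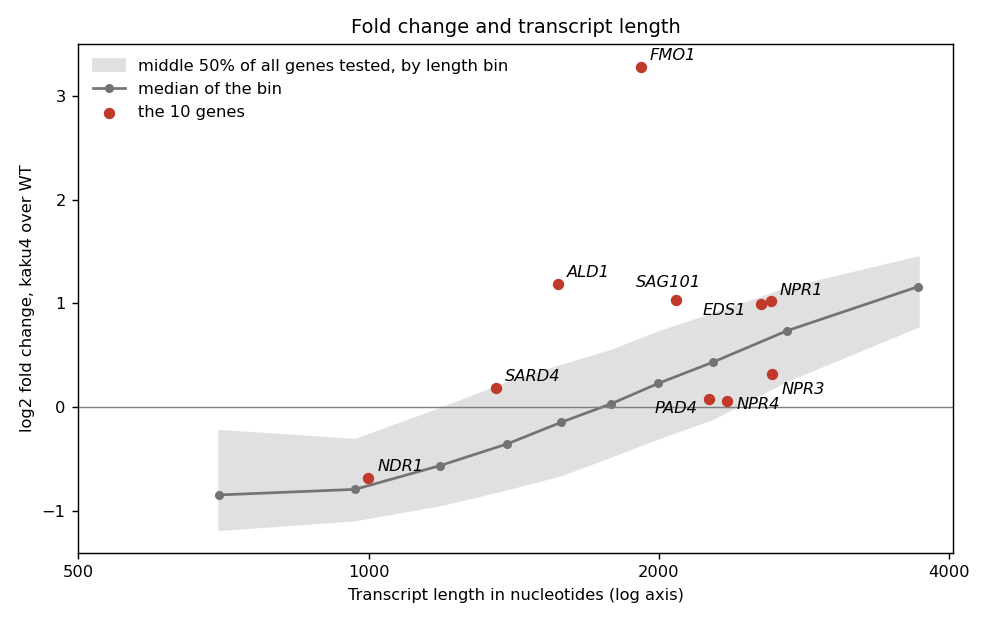
Log2 fold change, *kaku4* over WT, against transcript length on a log axis, with the median (line) and middle 50% (grey) of all genes tested in 10 length bins and the 10 genes in red. *FMO1* and *ALD1* lie far above the band, *NPR1* and *EDS1* lie close to its upper edge, and *NDR1* lies near the median for its length.

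The scale of the libraries also set how many genes passed. FPKM values summed to 953041 to 1188694 in the *kaku4* libraries and to 1412227 to 1559944 in the WT libraries, and the table does not give the number of fragments behind a value. Of the genes called, 58.8% were higher in *kaku4* with the values as deposited. When each library was rescaled to the same sum this share was 93.7%, with the median of all genes moving to 0.47, and 37.4% when libraries were centred on their medians, with the median of all genes moving to -0.19. After rescaling, 5 of the 10 genes were called higher and none lower (29.8% and 1.99% of all genes tested), namely *EDS1* at 1.50, *SAG101* and *NPR1* at 1.53, *ALD1* at 1.69 and *FMO1* at 3.72. *NDR1* was then at -0.17. *PAD4* at 0.59 (limma adjusted p = 0.0047) and *NPR3* at 0.82 (limma adjusted p = 0.0091) were short of the fold change threshold. After centring, 1 of the 10 was called higher and none lower (11.2% and 18.7% of all genes tested), *FMO1* at 3.08, and *ALD1* was at 0.99.

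**Figure D4:**
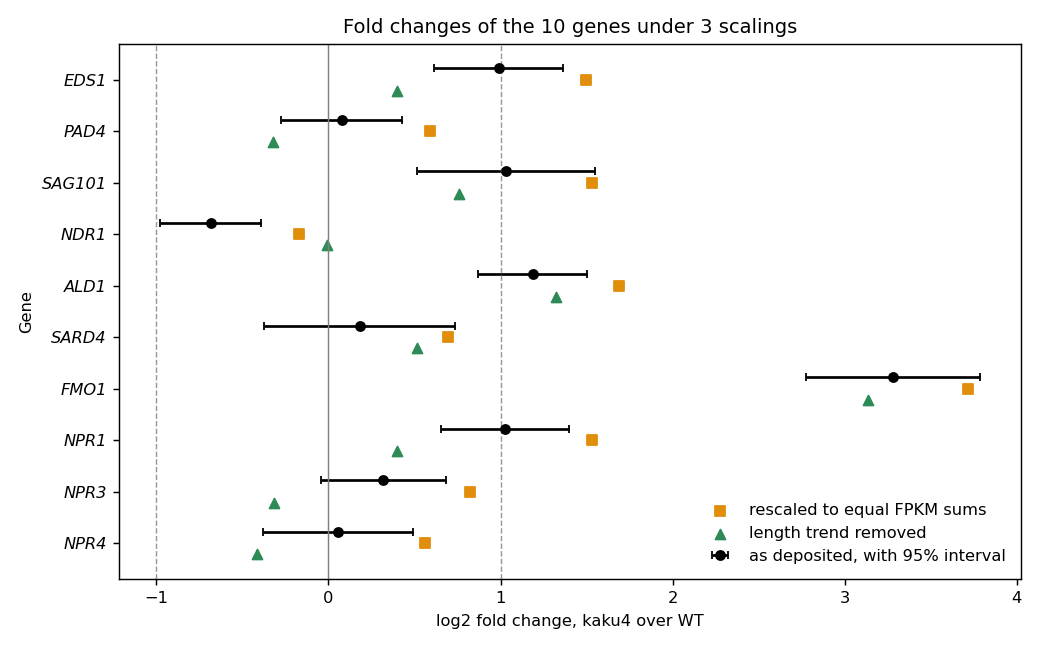
Log2 fold change, *kaku4* over WT, of each of the 10 genes with the deposited FPKM (black, 95% interval from limma), after rescaling each library to the same FPKM sum (orange squares) and after removing the length trend (green triangles). Dashed lines mark the fold change threshold, and *FMO1* and *ALD1* are past it under all 3 scalings.

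*KAKU4* itself had 0.739, 1.26 and 0.943 FPKM in *kaku4*, against 6.41, 5.45 and 5.71 FPKM in WT, so the libraries carry the labels' genotypes. Leaf genes were high everywhere, with *RBCS1A* at 12434 to 18347 FPKM over the 6 libraries, although *LHCB1.3* was listed at 0 in 5 of them. The summed FPKM of 4 flower markers was 0.333 to 0.508 in *kaku4*, against 1.53 to 2.04 in WT, and that of 3 root markers was 0.337 to 0.424 in *kaku4*, against 0.964 to 1.98 in WT. *PI*, *AG*, *SEP3* and *IRT1* among them were called lower in *kaku4*, where 11.5% of all genes tested were. *AP3* and *CASP1* overlapped between genotypes and were not called, and *EXPA7* was below the filter on low values. *IRT1* alone had 1.13, 1.80 and 0.683 FPKM in the WT libraries. The part of these markers in the results was not tested. In bulk leaves, fewer cells of a type and less RNA per cell cannot be told apart. Chloroplast transcripts took 30587 FPKM in *kaku4* replicate 1 and 44363 FPKM in WT replicate 1, against 499 to 945 FPKM in the others. Without replicate 1 of both genotypes, *FMO1* had a log2 fold change of 3.22, *ALD1* 1.24, *SAG101* 1.17, *EDS1* 1.16 and *NPR1* 1.14, and all 5 were called. In that fit 3827 of all 20618 genes tested were called higher, against 3380 with all 6 libraries.

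The 3 *ADR1* family genes, helper receptors that act with EDS1 pairs, rose in *kaku4*. *ADR1-L1* had 32.9, 47.1 and 38.3 FPKM in *kaku4*, against 10.1, 11.8 and 11.9 FPKM in WT, a log2 fold change of 1.79 (limma adjusted p = 0.000189). *ADR1* and *ADR1-L2* had log2 fold changes of 1.91 and 1.55. None of the 3 overlapped between genotypes. AT5G66900 and AT5G66910, which RefSeq annotates as disease resistance proteins of the CC-NBS-LRR class and which stand in the same list as helpers, were not called. AT5G66900 had a log2 fold change of -0.22 (limma adjusted p = 0.273), overlapped between genotypes and came to -0.999 with the length trend removed. AT5G66910 had 0.61 (limma adjusted p = 0.0505). The list also held receptors upstream of NDR1 and *RIN4*, and 3 of its 8 tested genes were called higher and none lower, where 16.4% of all genes tested were called higher and 11.5% lower, and a ninth gene, *RPS2*, was below the filter on low values. *RIN4*, whose protein binds NDR1 and is guarded by RPM1 and RPS2, had a log2 fold change of -0.33 (limma adjusted p = 0.0438), which turned to 0.18 after rescaling of the libraries to equal sums. The list's median was 0.63, and with the length trend removed *ADR1* alone was called, at 1.13, where 7.77% of all genes tested were.

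Among 15 NPR family members and partners, 3 were called higher and none lower, with a median log2 fold change of 0.49. This is a share near the 16.4% of all genes tested that were called higher. *CUL3A*, a scaffold of the ubiquitin ligases that turn over NPR1, had 6.99, 11.3 and 9.29 FPKM in *kaku4*, against 2.37, 2.78 and 2.49 FPKM in WT. Its log2 fold change was 1.79 (limma adjusted p = 0.000391), and it was still called at 1.04 once length was taken out. *CUL3B*, its paralogue, had 1.27 (limma adjusted p = 0.014), with 0.485 to 1.34 FPKM in WT. *CUL3B* was not called without WT replicate 2 (limma adjusted p = 0.0562) or WT replicate 3 (limma adjusted p = 0.0537). AT4G26120, annotated by RefSeq as an ankyrin repeat and BTB/POZ domain protein, had 1.13. With the length trend removed *CUL3B* came to 0.62 (limma adjusted p = 0.207) and AT4G26120 to 0.68 (limma adjusted p = 0.00798), and neither was called. Of 7 TGA factors, which bind DNA with NPR proteins, none was called, and 4 were higher by adjusted p alone, where 28.6% of all genes tested were. *NIMIN1* and *NIMIN3*, which encode NPR1-binding proteins that restrain it, were lower in every *kaku4* library at -0.56 (limma adjusted p = 0.0357) and -0.999 (limma adjusted p = 0.000799). *NIMIN2*, the third of these genes, overlapped between the genotypes with a log2 fold change of -0.04 (limma adjusted p = 0.877), and it came to 0.82 (limma adjusted p = 0.00307) with the length trend removed. *NIMIN3* was just short of the threshold as deposited. It was called lower under some alternatives, such as centring (-1.195), where 18.7% of all genes tested were called lower. With the length trend removed *NIMIN3* came to -0.12 and *NIMIN1* to 0.33.

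SA synthesis and its regulators rose in *kaku4*, with 5 of 6 genes called higher, none lower and a median log2 fold change of 1.37, where 16.4% of all genes tested were called higher. *ICS1*, the isochorismate synthase, had 1.35, *EDS5*, the chloroplast exporter of isochorismate, had 1.40, and *PBS3*, which couples isochorismate to glutamate, had 2.13. *CBP60g* and *SARD1*, factors that bind GAAATTT, had 1.75 and 1.19. *CBP60g* stood at 28.7, 38.2 and 28.6 FPKM in *kaku4*, against 8.09, 10.2 and 9.755 FPKM in WT. *EPS1*, which breaks down the PBS3 product, overlapped between the genotypes, with a log2 fold change of -0.04. Once length was taken out, *ICS1*, *PBS3* and *CBP60g* were called, where 7.77% of all genes tested were called higher.

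Of 7 genes that NPR1 is known to act on, 4 were called higher and none lower, where 16.4% of all genes tested were called higher, and the median log2 fold change was 1.59. *PR1* had 3747, 3523 and 4803 FPKM in *kaku4*, against 1050, 1467 and 1499 FPKM in WT, and *PR2*, a beta-glucanase gene, had 954, 1080 and 1023 FPKM, against 216, 225 and 241 FPKM in WT. The log2 fold changes were 1.59 for *PR1*, 2.16 for *PR2*, 1.68 for *PR5* and 1.89 for *WRKY62*. *WRKY70* had 0.88 (limma adjusted p = 0.00106), *WRKY38* had 0.40 (limma adjusted p = 0.0453) and *WRKY54* had 0.19 (limma adjusted p = 0.194), so none of these reached the fold change threshold. In all 7 genes every *kaku4* library was above every WT library, where 33.5% of all genes tested were so ordered. The list's median transcript length was 1306 bases, against 1688 bases over all genes tested, and 5 of the 7 were called once length was taken out, *WRKY70* joining them.

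**Figure D5:**
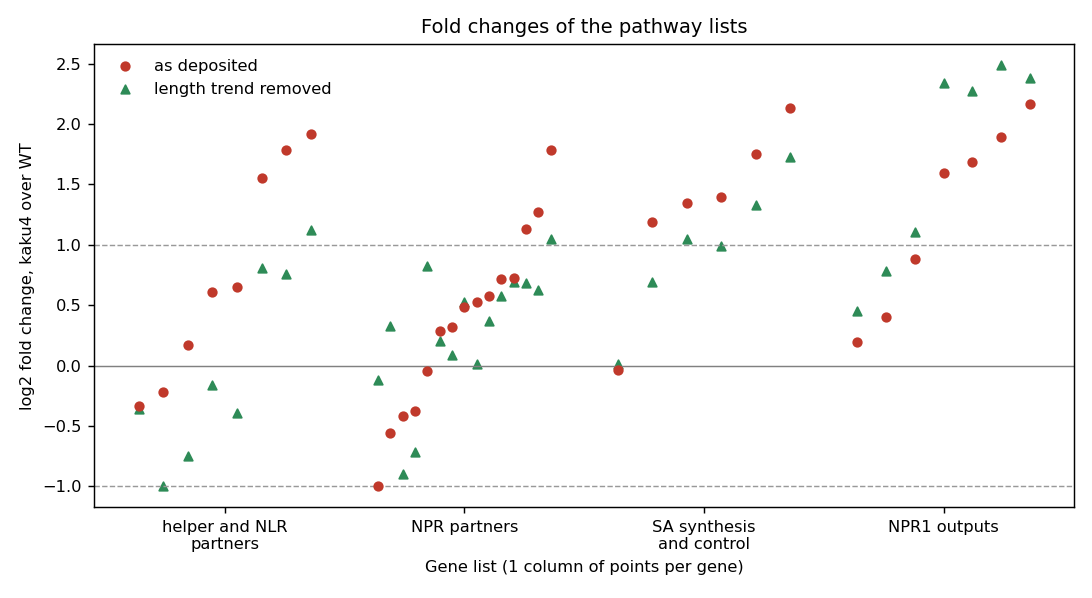
Log2 fold change, *kaku4* over WT, of each tested gene in 4 pathway lists, as deposited (red points) and with the length trend removed (green triangles), 1 column per gene in order of fold change, with dashed lines at the threshold. The SA synthesis list has 5 of 6 red points past 1 and the NPR1 output list 4 of 7, against 3 of 8 and 3 of 15 in the others.

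For each called gene, the gene with the most similar profile was found by the root mean square difference of log2(FPKM + 0.1) values, each centred on its own mean over the 6 libraries. *ABCA2*, a transporter gene, was nearest to *ALD1* at 0.02, and AT5G38710, annotated by RefSeq as a proline dehydrogenase, was nearest to *FMO1* at 0.12. AT4G11900, annotated as an S-locus lectin kinase, was nearest to *SAG101* at 0.06, and AT2G18090, annotated with a PHD finger, was nearest to *NPR1* at 0.05.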

How the data were processed

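RNA of 6 leaf libraries was sequenced by the study as 150-bp read pairs. Per the labels and the study's methods, the authors aligned reads to TAIR10 with TopHat2 2.0.9 and computed FPKM with Cufflinks, and the deposited table gives FPKM for each library. Of 24492 loci, 1442 hold a missing-value mark in all 6 libraries and were left out. Reads per gene are not in these values and the study's library totals were not used here, so no count model was used and the replicate spread is the sole measure of precision. From these, log2(FPKM + 0.1) was tested for 20618 genes averaging 0.1 FPKM or more over the libraries, with limma 3.58.1 in R 4.3.3, a mean-variance trend in eBayes and Benjamini-Hochberg adjustment over those genes. Length and GC trends were removed per library by lowess (span 0.4). Ratios were tested on the log2(FPKM + 0.1) scale by exact two-sided permutation. Scripts were tested on simulated data. Gene models, promoters and coding sequences came from RefSeq TAIR10.1, read with Python 3.11.15 and Biopython 1.88, since the table has no coordinates. Protein identity, planned, was not run. The H3K27me3 libraries were not analysed here. The members and lists were chosen with earlier results of these data known. Genes named were the 10 members, genes of the lists, markers, *KAKU4* and the nearest profile of each called member. Alternatives were the pseudocount, filter, scaling, length, GC, eBayes trend, replicate block and left-out libraries.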

Additional observations from a re-analysis of the deposited data

How the results depend on the processing

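*FMO1* was called higher under every alternative tried, with a log2 fold change of 2.40 to 3.72, and *ALD1* under all but centring, where it was 0.99. *SAG101* and *NPR1* sat so near the threshold that small changes moved them. The members called higher were 2 with a pseudocount of 1, where 1743 of all 20618 genes tested were. They were 1 after centring and 2 with the length trend removed, where 11.2% and 7.77% of all genes tested were. When libraries were left out they were 2 to 5, where 2648 to 3827 of all genes tested were. The 2 (*FMO1* and *ALD1*) came without *kaku4* replicate 2, where *NPR1* was 0.92 and *SAG101* 0.94. By adjusted p alone 1 member, *NDR1*, was lower, where 28.3% of all genes tested were. The deposited values hold no reads per gene, so counting error could not be set beside them.

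Over all 20618 genes tested, 1743 were called higher with a pseudocount of 1 and 2533 after quantile normalization. After rescaling 6148 (29.8%) were called higher, and 1602 (7.77%) with the length trend removed. Those called lower were 411 (1.99%) after rescaling, 3846 (18.7%) after centring, 2409 with a pseudocount of 0.01 and 1075 (5.21%) with the length trend removed. Leaving out libraries gave 2648 to 3827 higher and 1616 to 3033 lower. The helper receptor list had 5 called higher after rescaling and 1 with the length trend removed, where 29.8% and 7.77% of all genes tested were. NPR partners called higher were 1 with a pseudocount of 1 and 1 after quantile normalization, where 1743 and 2533 of all 20618 genes tested were. They were 7 after rescaling and 1 with the length trend removed, where 29.8% and 7.77% of all genes tested were. NPR partners called lower were 1 (*NIMIN3*) with a pseudocount of 0.01 or after centring, and 0 to 1 when libraries were left out. SA synthesis genes called higher were 3 with the length trend removed, where 7.77% of all genes tested were.

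Signs turned for genes near 0 and also for some further from it. As deposited, *NDR1* was at -0.68, *NIMIN1* at -0.56, AT5G66910 at 0.61 and *UGT76B1* at -0.49. After rescaling AT5G66900 was at 0.29, *NIMIN2* at 0.47, *RIN4* at 0.18, *EPS1* at 0.45 and *UGT76B1* at 0.017. After centring *PAD4* was at -0.12, *SARD4* at -0.015, *NPR4* at -0.14 and *WRKY54* at -0.0045. After quantile normalization *NPR4* was at -0.067, *RIN4* at 0.045 and *NIMIN2* at 0.50. With the length trend removed *PAD4* was at -0.32, *NPR3* at -0.31, *NPR4* at -0.41, AT5G66910 at -0.16, *NIMIN1* at 0.33, *NIMIN2* at 0.82 and *EPS1* at 0.014. With the GC trend removed AT5G66900 was at 0.082, *NIMIN2* at 0.48, *SARD4* at -0.21, *NDR1* at 0.041, *RIN4* at 0.20 and *NIMIN1* at 0.020. Leaving out libraries gave -0.022 to 0.19 for *PAD4*, -0.11 to 0.35 for *SARD4*, -0.10 to 0.27 for *NPR4*, -0.21 to 0.19 for *NIMIN2* and -0.27 to 0.10 for *EPS1*, which was at 0.12 without replicate 1 of both genotypes. The log2 difference of *SAG101* to *EDS1* was -0.011 with a pseudocount of 1, and -0.12 to 0.24 when libraries were left out. The log2 difference of *NPR3* to *NPR1* was 0.18 with the GC trend removed, a setting added for the ratios after seeing the data. The causes were not tested.

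Libraries share replicate numbers across genotypes, and the deviations of same-numbered libraries correlated at 0.31, 0.08 and 0.01, so the numbers were not taken to pair them, and 1 of the 3 pairs stood out. With the replicate block 4 members were called higher and none lower, and 3410 genes were higher and 2481 lower.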
